A study of Mus musculus with 4 samples.

Results

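The genes followed here encode secreted signals of tumour cells: the chemokines Ccl2, Ccl5, Ccl7, Ccl20, Cxcl1, Cxcl5, Cxcl10 and Cxcl12, and the colony-stimulating factors Csf1 and Csf2. They were chosen by symbol from the 26322 genes measured, with earlier results of these data known, and all 10 were found. The data are 4 libraries of 3′ mRNA sequencing from MC38 cells, a mouse colon cancer line. The 2 WT libraries come from cells electroporated with Cas9 and a guide that targets no gene, and the 2 CbfbKO libraries from cells given Cas9 and a guide against Cbfb. Cells of both groups were harvested a week or more after electroporation, without TNF or T cells in the labels, and 1 guide per group was used. Whether the edited cells were a pool or a clone, and whether the replicates were separate cultures, is not given in the sources used here, so the p-values measure the spread between these libraries. CBFβ is the partner subunit that strengthens DNA binding of the RUNX transcription factors.

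Chemokines are small secreted proteins that direct the migration of leukocytes through receptors on the cell surface. They are divided into CC and CXC families by whether the first cysteines of the mature protein are adjacent or separated by another residue. Tumour cells release several of them: CCL2 and CCL7 attract monocytes, CXCL1 and CXCL5 attract neutrophils, and CCL5 and CXCL10 attract T cells. CSF1 and CSF2 (GM-CSF) are not chemokines but growth factors that keep macrophages and other myeloid cells alive. Many of these genes are induced by NF-κB, which TNF activates.

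The libraries held between 3189035 and 3907936 reads on genes, so that 1 read is worth between 0.256 and 0.314 CPM, the counts scaled to the library total. These totals include the ribosomal RNA precursor Rn45s, with 13.9% and 13.1% of the reads in WT and 11.3% and 13.0% in CbfbKO. Reads were recovered from the deposited log2 CPM values, and a 3′ library gives about 1 read site per transcript, so CPM was set side by side between genes without dividing by length. How fully each gene's transcripts were counted was not measured, so the order of levels between genes is approximate. Cbfb mRNA was the check of the groups here, while the paper checked the loss of the protein in MC38 cells by immunoblot. Cbfb had 295 and 285 reads in WT and 125 in each CbfbKO library, which is 41.5% of the WT mRNA level (log2 fold change -1.27, standard error (SE) 0.12, limma adjusted p = 1.76e-07). Without CbfbKO replicate 1 or 2 its adjusted p was 0.267 or 0.193, at -1.12 or -1.41, and it was 0.290 without the low-value filter and 0.115 without the mean-variance trend. Markers of gut epithelium were nearly absent: the 8 listed had between 0 and 4 reads per library, with Krt18 and Vil1 at 0 in all, and summed to 1.77 and 1.80 CPM in WT and 1.79 and 1.57 in CbfbKO. Krt8 and Krt20 were tested and did not pass, Krt20 with 0 reads in WT and 3 and 2 in CbfbKO. The 5 mesenchymal markers were all detected, from Col1a1 at 8 to 13 reads to Vim at 6737 to 8669, and summed to 2831 and 2991 CPM in WT and 3004 and 2859 in CbfbKO. Of these 5, Sparc, a matrix protein gene, rose (log2 fold change 0.82, SE 0.059, limma adjusted p = 1.56e-09) and 4 did not pass, among them Vim at -0.18 (limma adjusted p = 0.0538), where 1.57% of all tested genes rose. Of 3 fibroblast markers, Pdgfra stood at 0.53 (limma adjusted p = 0.0515, and 0.34 to 0.72 with single libraries left out), Dcn at -0.17 (limma adjusted p = 0.677) and Lum had 0 reads, and their sum was 61.8 to 68.0 CPM in WT and 72.9 to 77.5 in CbfbKO. Vim and Pdgfra each passed in 5 of 13 alternatives, and the Sparc call was lost in 4, those that ended the Cbfb call. The part of these markers in the chemokine values was not tested. Of 8 leukocyte markers, 5 had 0 reads in every library and Ptprc (CD45) had 1 read in all. The summed level of these 8 markers was 5.997 to 9.13 CPM in WT and 5.12 to 6.90 in CbfbKO, most of it Cd14. As these are bulk libraries, fewer cells that make a transcript and less of it per cell cannot be told apart.

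In WT cells 9 of the 10 genes were expressed, that is, at or above a deposited log2 CPM of 0 in both WT libraries, and Csf2 was not detected. This bar is low, because the deposited scale holds a prior count. The marker Krt8 reached it with 2 and 4 reads in WT. The levels fell into 2 sets, which the plot of levels by library shows. Ccl2, Csf1, Ccl7, Cxcl1 and Cxcl10 lay between 50.9 and 399.4 CPM in WT. Ccl5, Cxcl5, Cxcl12 and Ccl20 lay between 1.18 and 5.10 CPM, on 17 reads or fewer per WT library. Ccl2 and Csf1 together made up 67.7% and 65.3% of the reads of the 10 genes in WT, and 74.5% and 76.8% in CbfbKO. In the order of WT levels, Ccl2, Csf1, Ccl7 and Cxcl1 were separated from each other without overlap of the WT libraries, as was Cxcl10 below Cxcl1. Among the low genes, Ccl5 and Cxcl5 overlapped, and so did Cxcl12 and Ccl20.

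**Figure D1:**
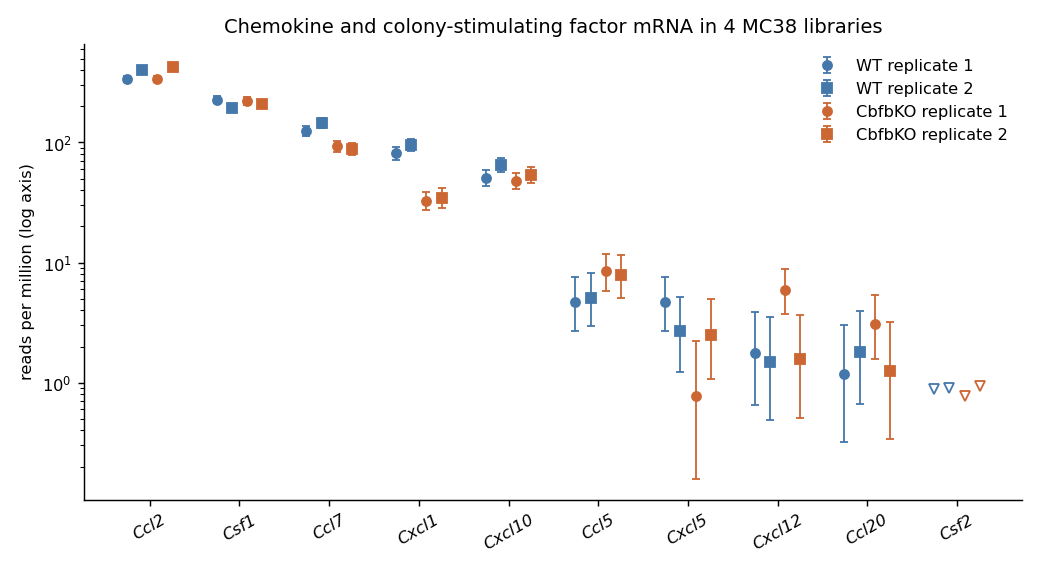
CPM (log axis) of the 10 genes in the 2 WT and 2 CbfbKO libraries, in the order of their mean WT level. Bars are 95% exact binomial intervals, which cover counting error only, and open triangles mark the limit that 0 reads allow, 3 reads of the library's total. Cxcl1 and Ccl7 were lower in both CbfbKO libraries, and the 4 rarest detected genes have wide intervals.

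In the comparison of CbfbKO with WT, which asks how the loss of CBFβ changes transcription in these tumour cells, 2 of the 9 tested genes fell and 0 rose. The genes that fell were Cxcl1, to 38.7% of its WT level, and Ccl7, to 67.8%. Among all 12207 genes tested, 1.25% were lower and 1.57% higher past the same threshold, an adjusted p under 0.05 from limma with Benjamini-Hochberg adjustment. Ccl5 and Cxcl5, besides Cxcl1 and Ccl7, had an unadjusted p under 0.05, so that 4 of the 9 had one, against 14.9% of all tested genes. Both CbfbKO libraries lay below both WT libraries for 3 of the 9 (Cxcl1, Ccl7 and Cxcl5), against 16.8% of all tested genes, and above for 1 (Ccl5), against 27.4%. The median log2 fold change was 0.028 over the 9 genes and 0.039 over all tested genes. The smallest p that exact permutation of these 4 libraries can give is 0.333, so each call rests on the spread that limma shares between genes.

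**Figure D2:**
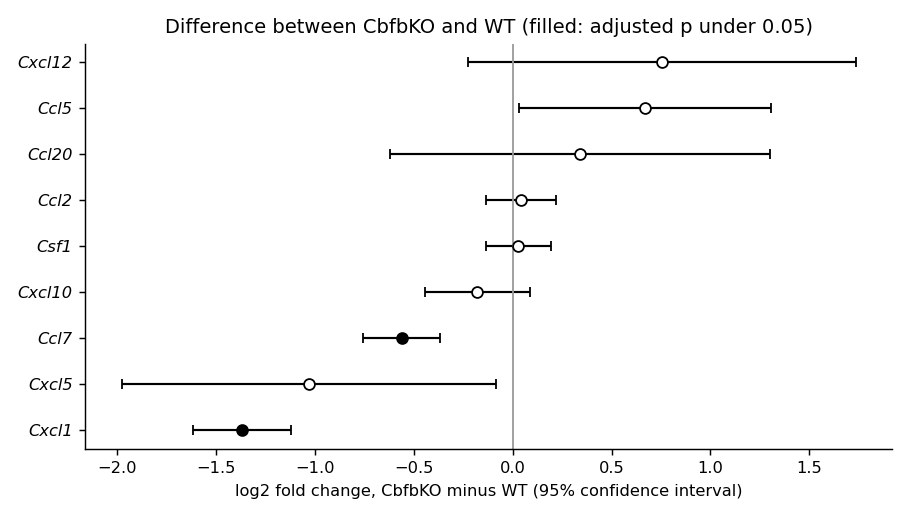
Log2 fold change of the 9 tested genes, CbfbKO minus WT, with the 95% confidence interval from limma, 2 libraries a group. Filled points are past an adjusted p of 0.05: Cxcl1 at -1.37 and Ccl7 at -0.56. The intervals of Ccl2 and Csf1 are narrow around 0, and those of Ccl20, Cxcl5 and Cxcl12 are wide.

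Cxcl1 encodes a CXC chemokine that draws neutrophils through CXCR2. It lies on the plus strand of chromosome 5 (chr5:90891241-90893115, GRCm38, ENSMUSG00000029380.11). The libraries held 275 and 317 Cxcl1 reads in WT and 128 and 110 in CbfbKO, which is 81.0 and 95.05 CPM against 32.8 and 34.5. Both CbfbKO libraries lay far below the lower WT library. On the deposited log2 scale the means were 6.46 ± 0.16 (SD, n = 2) and 5.10 ± 0.052 (SD, n = 2), and the log2 fold change was -1.37 (SE 0.12, 95% confidence interval -1.62 to -1.12, limma adjusted p = 4.82e-08). The fall was 2.58-fold. The log2 fold change stayed between -1.48 and -1.25 with any single library left out. Its adjusted p was 0.272 without CbfbKO replicate 1 and 0.263 without CbfbKO replicate 2, settings in which no gene passed, and it was 0.201 without the low-value filter and 0.113 without the mean-variance trend.

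Cxcl5, the other neutrophil chemokine of the set and a ligand of the same receptor, lies 129616 bases upstream on the same strand (chr5:90759360-90761624). It was rare, with 16 and 9 reads in WT and 3 and 8 in CbfbKO. Both CbfbKO libraries were below both WT libraries, but by a single read at the nearest. The log2 fold change of -1.03 (SE 0.46, 95% confidence interval -1.98 to -0.085) was not past the threshold (limma adjusted p = 0.280). With single libraries left out it ran from -0.43 (without CbfbKO replicate 1) to -1.63 (without CbfbKO replicate 2), with -0.68 and -1.38 without WT replicate 1 and 2. The other chemokine genes beside them in this cluster were nearly silent. Cxcl3 and Cxcl15 had 0 reads in every library, Ppbp had between 0 and 3, and Cxcl2, which lies 10755 bases from Cxcl1, had 0 and 0 in WT and 3 and 1 in CbfbKO.

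Cxcl10 encodes an interferon-induced chemokine for T cells that carry CXCR3, and lies on the minus strand of chromosome 5 (chr5:92346638-92348889). It had 173 and 217 reads in WT and 187 and 172 in CbfbKO, or 50.9 and 65.1 CPM against 47.9 and 53.9. The groups overlapped. The log2 fold change was -0.18 (SE 0.13, limma adjusted p = 0.574), and its 95% confidence interval, -0.45 to 0.088, leaves room for a level between 73.4% and 106.3% of WT. With single libraries left out the log2 fold change ran from -0.35 (without WT replicate 1) to -0.0038 (without WT replicate 2). Art3, which overlaps Cxcl10 on the opposite strand, had 9 to 25 reads, and the use of strand in counting is not given in the sources used here. The other interferon-induced chemokines of the cluster, Cxcl9 and Cxcl11, had at most 3 reads in any library. Relative to Cxcl10 reads of the same library, Cxcl1 reads were 159.0% and 146.1% in WT and 68.4% and 64.0% in CbfbKO.

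Promoters from RefSeq were found for 6 of the 10 genes (GRCm38.p6), and the 250 bases before the start were searched on both strands for RUNX motifs (TGTGGT or TGCGGT), for the κB motif bound by NF-κB, for the core of the interferon-stimulated response element and for the AP-1 motif (TGANTCA). No promoter was found for Ccl2, Ccl5, Ccl7 and Cxcl5, so these genes were not searched. The κB motif was in 4 of the 6 (Cxcl1, Cxcl10, Csf1 and Ccl20), against 7.25% of all 32851 promoters. TGTGGT was in 1 of the 6, Ccl20, against 14.0% of all promoters, and TGCGGT was in none, against 5.10%. The interferon core and the AP-1 motif were each in Cxcl10 only, against 2.98% and 6.75% of all promoters. Of these, 3 promoters are printed: that of Cxcl1, which was called lower, that of Cxcl10, which holds the interferon core and the AP-1 motif, and that of Ccl20, which holds the RUNX motif. Whether the motifs bear on the changes was not tested. Capitals mark the motifs. In Cxcl1 the capitals are κB matches on both strands that overlap. In Cxcl10 they are, in order, the interferon core, a κB match, overlapping κB matches and the AP-1 motif, and in Ccl20 they are TGTGGT and a κB match. The stretches are chr5:90890995-90891244 on the plus strand for Cxcl1, chr5:92348890-92349139 on the minus strand for Cxcl10 and chr1:83116516-83116765 on the plus strand for Ccl20. The windows end at RefSeq's start, which for Csf2 lies 232 bases upstream of the GENCODE start given for the gene, so the bases next to that GENCODE start were not searched, and for Cxcl1 lies 4 bases downstream. A match in letters is a description and does not show that a factor binds.
Cxcl1: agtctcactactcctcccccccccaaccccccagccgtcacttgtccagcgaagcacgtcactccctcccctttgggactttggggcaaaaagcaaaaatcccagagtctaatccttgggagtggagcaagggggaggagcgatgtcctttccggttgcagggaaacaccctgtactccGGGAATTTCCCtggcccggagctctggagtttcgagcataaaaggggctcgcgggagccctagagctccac
Cxcl10: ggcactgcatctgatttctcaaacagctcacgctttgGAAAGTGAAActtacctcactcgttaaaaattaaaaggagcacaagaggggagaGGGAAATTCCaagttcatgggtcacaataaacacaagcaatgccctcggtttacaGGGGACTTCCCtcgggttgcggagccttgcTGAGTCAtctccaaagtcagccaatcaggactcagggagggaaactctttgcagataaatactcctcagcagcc
Ccl20: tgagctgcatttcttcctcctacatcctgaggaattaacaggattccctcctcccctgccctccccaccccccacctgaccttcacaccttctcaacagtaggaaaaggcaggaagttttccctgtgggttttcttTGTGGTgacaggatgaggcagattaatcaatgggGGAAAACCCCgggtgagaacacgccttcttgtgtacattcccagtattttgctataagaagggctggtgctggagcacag

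Ccl2 and Ccl7 encode monocyte chemokines that share the receptor CCR2. They are neighbours on the plus strand of chromosome 11, Ccl2 at chr11:82035571-82037453 and Ccl7 at chr11:82045712-82047525, with 8258 bases between them. Ccl2 was the most abundant of the 10 genes, rank 398 of the 12207 tested by WT level, with 1143 and 1332 reads in WT and 1325 and 1343 in CbfbKO. The CPM were 336.6 and 399.4 in WT and 339.1 and 421.1 in CbfbKO, so that replicates differed more than groups. Its log2 fold change was 0.044 (SE 0.085, limma adjusted p = 0.875), with a 95% confidence interval of -0.13 to 0.22, or 91.2% to 116.5% of the WT level. Ccl7 had 424 and 484 reads in WT and 365 and 283 in CbfbKO, or 124.8 and 145.1 CPM against 93.4 and 88.7. The CbfbKO libraries lay below the WT libraries without overlap. The Ccl7 log2 fold change was -0.56 (SE 0.094, 95% confidence interval -0.76 to -0.37, limma adjusted p = 0.000535), a 1.48-fold fall. Its adjusted p was 0.0501 without WT replicate 2 (log2 fold change -0.45), 0.525 without CbfbKO replicate 1 and 0.511 without CbfbKO replicate 2. It was 0.509 without the low-value filter, 0.298 without the mean-variance trend and 0.0645 with quantile normalization.

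The ratio of reads of these neighbours within a library does not depend on how libraries are scaled. Ccl7 reads were 37.1% and 36.3% of Ccl2 reads in WT and 27.5% and 21.1% in CbfbKO. Cxcl1 reads were 24.1% and 23.8% of Ccl2 reads in WT and 9.66% and 8.19% in CbfbKO. Both ratios were lower in both CbfbKO libraries, by 0.61 and 1.43 on the log2 scale, and the two-sided exact permutation p was 0.333 for each, the smallest that 4 libraries allow. Cxcl10 reads relative to Ccl2 were also lower without overlap, at 15.1% and 16.3% in WT and 14.1% and 12.8% in CbfbKO, by 0.22 on the log2 scale, with the same p of 0.333. Csf1 reads relative to Ccl2 ranged over the same values in both groups, 67.6% and 48.9% in WT and 65.4% and 49.5% in CbfbKO. The next chemokines of the chromosome 11 cluster, Ccl11 and Ccl12, had 0 reads in every library.

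**Figure D3:**
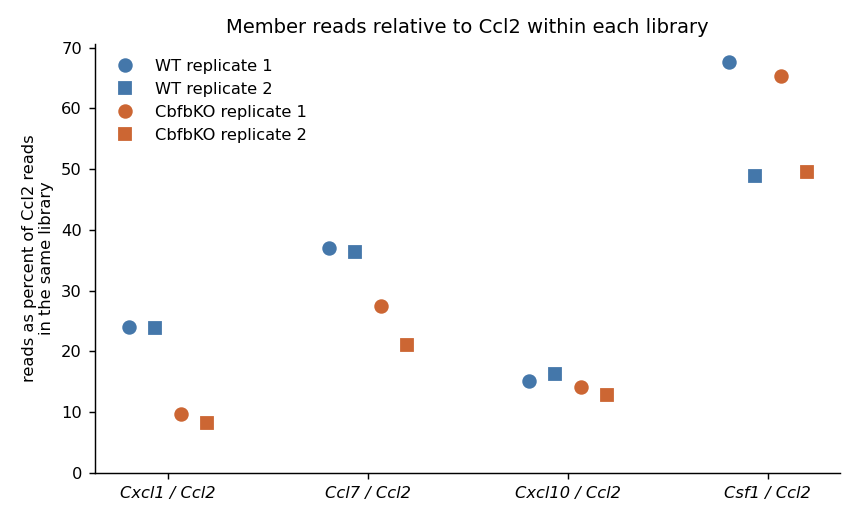
Reads of Cxcl1, Ccl7, Cxcl10 and Csf1 as a percentage of Ccl2 reads in the same library, for the 2 WT and 2 CbfbKO libraries (linear axis from 0). Cxcl1 and Ccl7 fell relative to Ccl2 in both CbfbKO libraries, from 24.1% and 23.8% to 9.66% and 8.19% for Cxcl1. Cxcl10 was also lower in both, from 15.1% and 16.3% to 14.1% and 12.8%, and Csf1 overlapped.

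Ccl5, a chemokine for T cells and monocytes, lies apart from them on the minus strand of chromosome 11 (chr11:83525778-83530518). It had 16 and 17 reads in WT and 33 and 25 in CbfbKO, or 4.71 and 5.10 CPM against 8.44 and 7.84. Both CbfbKO libraries were above both WT libraries, and the replicates were close. The log2 fold change was 0.67 (SE 0.31, 95% confidence interval 0.032 to 1.31), which was not past the threshold over all genes (limma adjusted p = 0.302). With each library left out it stayed between 0.62 and 0.72. The exact binomial intervals of the single libraries, 2.97 to 8.16 CPM in WT replicate 2 and 5.07 to 11.6 CPM in CbfbKO replicate 2, overlap.

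Ccl20, the ligand of CCR6, lies on chromosome 1 (chr1:83116766-83119167) and had 4 and 6 reads in WT and 12 and 4 in CbfbKO. The groups overlapped and the higher value was in 1 CbfbKO library only. Its log2 fold change was 0.34 (SE 0.47, limma adjusted p = 0.810) and was -0.16 without CbfbKO replicate 1. Cxcl12, the ligand of CXCR4 and ACKR3 (chr6:117168535-117181367), had 6 and 5 reads in WT and 23 and 5 in CbfbKO. CbfbKO replicate 1 stood apart, at 5.89 CPM with an exact interval of 3.73 to 8.83, against 1.499 to 1.77 in the other 3 libraries. The log2 fold change of 0.75 (SE 0.47, limma adjusted p = 0.5005) fell to -0.040 without that library. Neither gene allows a statement about the groups at this depth.

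Csf1, the survival factor of macrophages, was the second most abundant of the 10 genes and lies on the minus strand of chromosome 3 (chr3:107741048-107760469). It had 773 and 651 reads in WT and 866 and 665 in CbfbKO, or 227.6 and 195.2 CPM against 221.6 and 208.5. The CbfbKO libraries lay between the WT libraries. The log2 fold change was 0.028 (SE 0.080, limma adjusted p = 0.917), and the 95% confidence interval spans 91.0% to 114.3% of the WT level. Csf2 (chr11:54247271-54249667) had 0 reads in each of the 4 libraries, which allows up to 0.883 and 0.900 CPM in WT and 0.768 and 0.941 in CbfbKO, 3 reads of each total. Il3, which lies 15635 bases from Csf2 and encodes a related cytokine, also had 0 reads in every library.

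Other chemokines and myeloid cytokines were followed in a list of 41 genes, of which 12 were tested and 22 had 0 reads in every library. Of the 12, 1 rose, 0 fell and 11 did not pass, where 1.57% of all tested genes rose and 1.25% fell, and 6 of the 12 had an unadjusted p under 0.05, where 14.9% of all did. The 6 include Csf3, which had 0 reads in WT and passed the filter on low values only through CbfbKO. The gene that rose was Il11, a cytokine of the IL-6 family, with 13 and 11 reads in WT and 33 and 38 in CbfbKO (log2 fold change 1.36, SE 0.32, limma adjusted p = 0.0155). The call was lost with any library left out, with an adjusted p between 0.0602 without WT replicate 1 and 0.525 without CbfbKO replicate 1, and the log2 fold change then lay between 1.13 and 1.60. It was also lost with quantile normalization (adjusted p = 0.153), without the low-value filter (0.571) and without the mean-variance trend (0.165). The most abundant of the list was Mif, a macrophage cytokine, with 3377 to 4379 reads and a log2 fold change of 0.12 (limma adjusted p = 0.276, and 0.075 to 0.17 with single libraries left out). Il34, the other ligand of the CSF1 receptor, had 172 and 154 reads in WT and 143 and 124 in CbfbKO, without overlap in CPM, and its log2 fold change was -0.35 (SE 0.13, limma adjusted p = 0.1699). Kitl (stem cell factor) stood at -0.34 (SE 0.11, limma adjusted p = 0.0847) and the chemokine Ccl25 at -0.40 (SE 0.29, limma adjusted p = 0.578), the latter between -0.67 and -0.14 with single libraries left out.

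Most receptors for these ligands were not detected. Of 17 receptor genes, 13 had 0 reads in every library, Csf1r, Ccr2, Ccr6 and Cxcr3 among them. The CXCL1 receptor gene Cxcr2 had the most reads, 70 and 77 in WT and 71 and 66 in CbfbKO, with a log2 fold change of -0.17 (SE 0.19, limma adjusted p = 0.756, and -0.26 to -0.074 with single libraries left out). Ackr3, a scavenging receptor for CXCL12, had 6 and 12 reads in WT and 17 and 12 in CbfbKO (log2 fold change 0.56, SE 0.40, limma adjusted p = 0.564), a value of 0.15 and 0.98 without WT replicate 1 and 2. Cxcr4 had 0 and 2 reads in each group (log2 fold change 0.017) and Csf2rb at most 2. Of the 3 receptor genes tested, 0 passed and 0 had an unadjusted p under 0.05, beside 1.57% higher, 1.25% lower and 14.9% of all tested genes, shares too small for 3 genes to be read against.

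Regulators of chemokine transcription and mRNA decay were listed as well, 38 genes with 36 tested, of which 2 rose, 3 fell and 31 did not pass, against 1.57% higher and 1.25% lower of all tested genes, and 10 of the 36 had an unadjusted p under 0.05, against 14.9%. Runx1 and Runx2, the DNA-binding partners of CBFβ, rose by 0.65 and 0.79 on the log2 scale (SEs 0.093 and 0.18, adjusted p = 6.84e-05 and 0.0123 from limma). The leucine zipper factor Cebpb fell by 0.69 (SE 0.12, limma adjusted p = 0.00126), the AP-1 subunit gene Jun by 0.37 (SE 0.073, limma adjusted p = 0.00307) and Zfp36l2, an RNA-binding protein of the mRNA decay family, by 0.42 (SE 0.063, limma adjusted p = 0.000148). All 5 calls were lost without either CbfbKO library, without the low-value filter (adjusted p between 0.117 and 0.762) and without the mean-variance trend (between 0.136 and 0.352). Those of Runx2, Jun and Cebpb were lost with quantile normalization (0.121, 0.0584 and 0.175). The Runx2 call was also lost without either WT library (adjusted p = 0.0582 and 0.0854 from limma), that of Jun without WT replicate 1 (0.0547) and that of Cebpb without WT replicate 2 (0.0927). The NF-κB inhibitor gene Nfkbia, itself a target of NF-κB, had 2323 to 2776 reads and a log2 fold change of 0.052 (SE 0.055, limma adjusted p = 0.736, and 0.034 to 0.070 with single libraries left out). Among the most abundant others, the log2 fold change was -0.072 for Hnrnpd, 0.13 for Zfp36l1 and 0.028 for the AP-1 subunit gene Fosl1, which had 752 and 813 reads in WT and 1006 and 695 in CbfbKO. With single libraries left out, Hnrnpd ran from -0.10 to -0.042 and Zfp36l1 from 0.056 to 0.20. The NF-κB subunit genes were picked after their values were seen. Nfkb1 stood at -0.51 (limma adjusted p = 0.0993, and -0.72 to -0.30 with single libraries left out) and Rela at 0.10 (limma adjusted p = 0.674). Relb stood at 0.31, Rel at 0.12 and Nfkb2 at -0.0045, and none of them passed. The median log2 fold change over the 36 was 0.057. Whether any of these genes bears on Cxcl1 or Ccl7 was not tested.

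**Figure D4:**
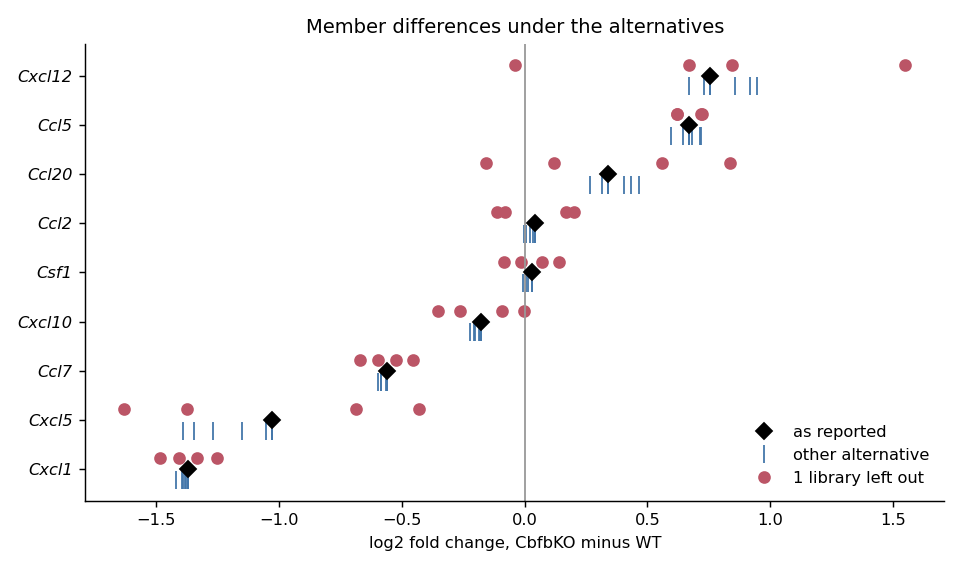
Log2 fold change of the 9 tested genes, CbfbKO minus WT, as reported (diamonds), with 1 library left out (circles) and under the other alternatives (ticks). Cxcl1 stayed between -1.48 and -1.25 and Ccl7 between -0.67 and -0.45, while Ccl20 and Cxcl12 crossed 0 when CbfbKO replicate 1 was left out and Ccl2 and Csf1 lay on both sides of 0.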

How the data were processed

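MC38 RNA was sequenced with the QuantSeq 3′ kit, 2 WT and 2 CbfbKO libraries. The authors trimmed reads (cutadapt), aligned them to GRCm38/mm10 (HISAT2), counted them with featureCounts (2.0.1 in the submitters' processing notes, an earlier Subread release in the methods) and deposited log2 CPM per library, scaled to library totals. The annotation and the handling of strand and of multi-mapping reads are not given in the sources used here. The values step by whole reads above a shared floor and imply a prior count of 2, so reads were recovered, with 100% of the values above the floor within 0.1 of a whole number.

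limma 3.58.1 in R 4.3.3 (mean-variance trend, two-sided, Benjamini-Hochberg) was run on the deposited values of 12207 genes, those that reached log2 CPM 0 in 2 or more libraries. The methods name voom, which needs counts. Here it was an alternative. Standard errors and folds are on the deposited log2 scale, whose prior count shrinks changes of rare genes. Recovery and test were also run on simulated counts with a fixed spread between libraries, a check of the steps and not of the calls reported here. Gene positions are from GENCODE M21 (GRCm38), and promoters from RefSeq.

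The members and lists were chosen with earlier results of these data known. The named genes are all members, list genes past the threshold, the 4 others of each list with the highest WT level, neighbours of members, and Cbfb. Cxcl11, Csf1r, Ccr2, Ccr6, Cxcr3 and the marker genes named were picked after their values were seen.

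Alternatives were no filter, a minimum of 5 CPM, median centring, quantile normalization, no trend, voom with library totals or median scaling, a prior of 0.5 reads, the replicate block, and each library left out.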

Additional observations from a re-analysis of the deposited data

How the results depend on the processing

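The 2 members called lower, Cxcl1 and Ccl7, numbered 0 without the low-value filter, 1 with quantile normalization (Cxcl1), 0 without the mean-variance trend, and 0 to 2 with single libraries left out. In the same settings, all genes past the threshold numbered 55, 83 and 0 (1461 at an unadjusted p under 0.05 by limma without the trend) and 0 to 201, against 345. Without either CbfbKO library the count was 0, with 1104 and 1169 genes at an unadjusted p under 0.05. Ccl7 alone was lost without WT replicate 2. Both stayed called with the other alternatives, voom included, and 0 members were higher under any. Of the 345, 55.7% were higher, against 42.6% in voom with median scaling, 47.0% with quantile normalization and 3.64% without the filter. The replicate block gave 535 genes and left every member's call as it was. Deviations of libraries that share a number were uncorrelated across genes (-0.0042), and the labels do not say what they share. Kitl and Nfkb1 passed in 2 alternatives each. Directions turned for Ccl2 (-0.0043) and Csf1 (-0.0048) in voom with median scaling. With single libraries left out, the log2 fold change ran from -0.11 to 0.20 for Ccl2, -0.082 to 0.14 for Csf1, -0.16 to 0.84 for Ccl20, -0.040 to 1.55 for Cxcl12, -0.092 to 0.15 for Fosl1 and -0.51 to 0.55 for Cxcr4. Cxcr4, at 4 reads in all, also turned with median centring (-0.0062), voom (-0.11 with library totals and -0.15 with median scaling) and a prior of 0.5 reads (-0.069). The cause was not tested. Depth limits Ccl5, Cxcl5, Cxcl12, Ccl20 and Csf2.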

Other observations

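Some further secreted factors appeared at a few reads per library, and were picked after their values were seen. Csf3, the gene of the granulocyte colony-stimulating factor G-CSF, had 0 reads in both WT libraries and 9 and 2 in CbfbKO, so that it entered the test only through CbfbKO, and it did not pass (limma adjusted p = 0.124). Ccl8, a monocyte chemokine of the same chromosome 11 family as Ccl2 and Ccl7, had 2 reads in each WT library and 5 and 10 in CbfbKO (log2 fold change 1.16, SE 0.49, limma adjusted p = 0.250). Its log2 fold change was 1.66 and 0.66 without CbfbKO replicate 1 and 2.

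Of 36 genes beside the members, up to 2 on each side and members left out, 13 were tested, 1 rose and 0 fell, where 1.57% of all tested genes rose and 1.25% fell. Acsl6, which encodes a long-chain acyl-CoA synthetase and lies 54130 bases from Csf2, had 4 and 10 reads in WT and 28 and 21 in CbfbKO. Its log2 fold change was 1.57 (SE 0.39, limma adjusted p = 0.0249). The adjusted p was 0.252 without WT replicate 1, 0.556 without CbfbKO replicate 1 and 0.511 without CbfbKO replicate 2. The adjusted p over its alternatives ran from 0.00284 to 0.895.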
